A study of Homo sapiens with 60 samples.

Results

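SW1783 cells received Cinnamomi Cortex, the bark of cinnamon taken up in ethanol, at 3 doses, and the high dose of 500 µg/mL is set here against the low dose of 20 µg/mL. The libraries were chosen by their labels: 3 of the high dose and 3 of the low dose, 6 of 60 in the series. The 3 libraries of the medium dose, 100 µg/mL, show the course between them, so that each step of dose is 5-fold. SW1783 is an established human astrocytoma line, and all groups used here were collected 24 h after treatment and read by RNA sequencing. The 3 vehicle libraries received DMSO without extract. Their labels give 0.1% DMSO and the series text gives 2%, and which holds was not resolved. The low, medium and high libraries share a label code that the vehicle libraries do not, so extract and code cannot be told apart in any value set against the vehicle, and such values are given without a test. Samul-tang and Sibjeondaebo-tang, formulas of several herbs given to the same line at the same 3 doses, serve as comparisons. By recipe Samul-tang lacks cinnamon bark and Sibjeondaebo-tang holds it. Both formulas carry label codes other than that of the bark, each the same at its high and low dose. A difference between their changes and that of the bark therefore also crosses codes. The comparison asks which transcripts change with the dose of the bark extract. Nothing in the labels tells if the 3 replicates of a group came from separate cultures; a p-value here reflects only how far these libraries spread, which may be technical.

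Several inducible gene programmes bear on the genes described here. NRF2 is a transcription factor held low by KEAP1 and released by electrophiles and oxidants; it raises genes of glutathione supply, quinone reduction and iron storage, and HMOX1 is among its targets as well as a target of the heme sensor BACH1. PPAR nuclear receptors bind fatty acids and raise genes for lipid droplets and mitochondrial fatty acid oxidation. SREBP factors raise cholesterol and fatty acid synthesis genes when membrane sterol is low. The aryl hydrocarbon receptor, AhR, binds planar aromatic ligands and raises CYP1 enzymes, and retinoic acid raises genes that dispose of retinoids or store their precursor.

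Promoter sequences of a gene that rose and a gene that fell are printed as examples of motifs that these programmes are known to use. Both are 120 bases ending just before the RefSeq transcription start (GRCh38.p14), written 5′ to 3′ on the gene's own strand, which is the minus strand for both. The first is that of GCLM (chr1:93909431-93909550), the modifier subunit of glutamate-cysteine ligase. Its capitals mark a match to the core of the antioxidant response element, TGACNNNGC, read on the opposite strand at bases 34 to 26 before the start. The second is that of CYP1A1 (chr15:74725529-74725648), with the core of the xenobiotic response element, GCGTG, in capitals at bases 57 to 53 before the start.

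GCLM: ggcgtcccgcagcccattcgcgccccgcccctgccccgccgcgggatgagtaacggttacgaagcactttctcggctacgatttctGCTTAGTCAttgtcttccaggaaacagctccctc

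CYP1A1: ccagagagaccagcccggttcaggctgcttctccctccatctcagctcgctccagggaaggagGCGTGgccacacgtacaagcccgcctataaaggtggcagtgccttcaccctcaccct

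A search of promoters of 300 bases (250 before to 50 after the start, both strands) put these matches beside those of other genes. Of the 78 genes that differed between the high and the low dose, 60 had a promoter in the RefSeq table, 30 of the higher and 30 of the lower genes. TGACNNNGC, whose letters can overlap those of an AP-1 site, was found in 13.6% of all 27305 promoters, in 6 of 30 higher and in 5 of 30 lower genes. The 6 higher genes were CPA4, GCLM, IL1RL1, KCNJ15, SIK1 and SLC20A1, of which only GCLM is a called NRF2 target. The promoter of NQO1, another called NRF2 target, was searched and held no match. GCGTG was found in 36.3% of all promoters, in 14 of 30 higher and 18 of 30 lower genes. CPT1A, PLIN2, NQO1 and GCLM were among the higher, and DHRS3, ALDH1A3 and INSIG1 among the lower. The 27305 promoters were not limited to genes expressed here. A sterol response element core, TCACNCCAC, was in 1.15% of all promoters and in none of the 60 searched, and a PPAR repeat core, GGTCANAGG, was in 1.44% of all promoters and in 1 of the 60, that of PTX3. These are matches of letters and say nothing of binding.

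The 9 Cinnamomi Cortex libraries held 24509975 to 31162170 expected counts, the vehicle libraries 24212214 to 26167537 and the libraries of the formulas 23718121 to 32782161. No pair of the 9 libraries agreed within sampling noise (chi-square per gene 2.21 to 7.09 over 36 pairs). Levels are given below in CPM, that is, counts relative to the TMM-normalised total of each library. Of the astrocyte markers, GFAP (at most 0.12 CPM), S100B (at most 0.32 CPM), AQP4 and ALDH1L1 were at or near 0, while the glutamate transporter gene SLC1A3 (22.5 to 26.1 CPM), VIM (3946 to 4647 CPM), CD44 (2518 to 2764 CPM) and SOX9 (59.1 to 66 CPM) were present in all 9. None of the tested markers of astrocytes, neurons, blood cells, endothelium or oligodendrocytes was called between the high and the low dose. The neuron markers SNAP25 (22.8 to 25.7 CPM) and SYT1 (33.3 to 37.8 CPM) and the blood cell marker PTPRC (10.3 to 12.7 CPM) were present in all 9. The oligodendrocyte gene MOG was at 0 in all 9 libraries. The 13 listed genes encoded by mitochondria, which leave out the ribosomal RNA gene MT-RNR2, together took 4.62 to 4.98% at the high dose. They took 4.61 to 4.77% at the low dose and 6.46 to 6.97% in the vehicle.

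At the high dose, HMOX1 and the lipid-related genes ANGPTL4, PDK4 and PLIN2 stood highest above the low dose, and CYP1A1, DHRS3, CYP1B1 and sterol-regulated genes stood below it. Of 17676 genes tested with edgeR's quasi-likelihood test on 57 libraries, 78 were called (Benjamini-Hochberg adjusted p below 0.05), which is 0.441%. Of these 43 were higher (0.243%) and 35 lower (0.198%). In all 78 the high and low libraries did not overlap, against 19.1% of all tested genes, so a lack of overlap adds little to a call. Changes of at least 2-fold were few, 4 higher (HMOX1, ANGPTL4, PDK4 and PLIN2) and 1 lower (CYP1A1), and the median log2 change of all genes was -0.004. Without adjustment, 998 genes had p below 0.05. Since the 57 libraries share 1 estimate of the spread per gene, libraries of other extracts bear on these calls. With 2 low-dose libraries of Astragali Radix left out, 534 genes were called. In the 9 Cinnamomi Cortex libraries alone 415 of 16518 were called (2.51%), 240 higher (1.45%) and 175 lower (1.06%). All 78 genes were among both sets, each in the same direction. With 1 library left out the count was 43 without high replicate 1, 50 without high replicate 2, 51 without low replicate 1 and 47 without low replicate 3. In bulk RNA, fewer cells that express a gene and less RNA per cell cannot be told apart.

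**Figure D1:**
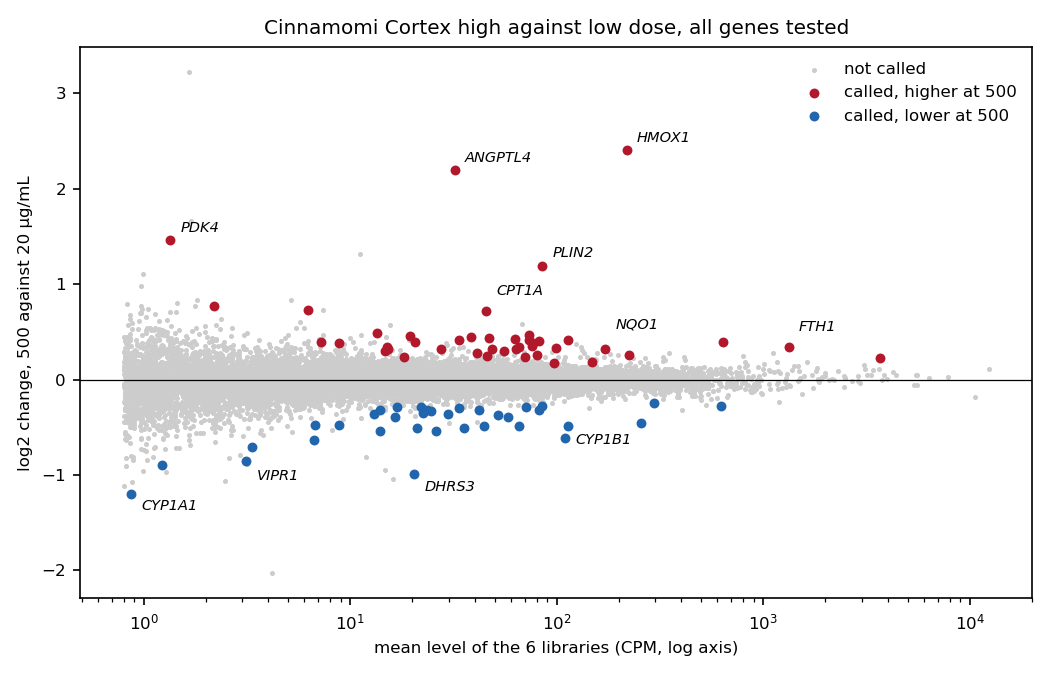
Log2 change of the high against the low dose of Cinnamomi Cortex (y axis) by the mean level of the 6 libraries in CPM (x axis, log scale), 1 point per gene. Coloured points are called genes, and the 14281 genes of at least 0.8 CPM are drawn; HMOX1 and ANGPTL4 lie above 2 on the log2 scale, PLIN2 at 1.19 and DHRS3 at -0.99.

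HMOX1 (chr22:35380361-35394214, GRCh38), which encodes the inducible enzyme that opens heme to biliverdin, carbon monoxide and iron, rose the most. Its level was 74, 63.8 and 69.4 CPM in the low-dose libraries, 132, 127 and 131 CPM at the medium dose and 377, 350 and 371 CPM at the high dose. The vehicle libraries held 86.2, 83.8 and 82.9 CPM. The 3 doses did not overlap, and the low dose lay below all vehicle libraries while the medium dose lay above them. The high dose exceeded the low dose 5.3-fold (log2 2.41 ± 0.10 SE, n = 3 per group, adjusted p = 9.49e-24).

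Other genes around heme and iron rose by less. FTH1, the heavy chain of ferritin that oxidises and stores iron, went from 1195, 1147 and 1170 CPM at the low dose to 1500, 1456 and 1488 CPM at the high dose (log2 0.34 ± 0.08, adjusted p = 0.0179). Processed copies of FTH1 exist in the genome, so its counts are uncertain. SLC48A1, a heme transporter, stood at 24, 23.4 and 25.8 CPM and then at 30.6, 29.9 and 30.7 CPM (log2 0.32 ± 0.06, adjusted p = 0.00187). In the list of heme degradation and iron storage genes, 3 of 11 tested members rose and none fell, with a median log2 change of 0.10. The fit of the 9 libraries alone also called FTL, the light chain of ferritin (log2 0.18 ± 0.05, adjusted p = 0.0491). ALAS1, outside that list, encodes the enzyme that starts heme synthesis. It was 61.3, 63 and 64.1 CPM at the low dose and 83.1, 83.4 and 84.5 CPM at the high dose (log2 0.41 ± 0.05, adjusted p = 3.86e-07). These did not overlap, as in every called gene.

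Of 28 NRF2 target genes tested, 3 rose and none fell, and the median log2 change was 0.13 against -0.004 over all genes. NQO1, a quinone reductase, was 157, 143 and 157 CPM at the low dose and 195, 182 and 192 CPM at the high dose (log2 0.32 ± 0.06, adjusted p = 0.00267). GCLM, whose promoter stands above, went from 98.4, 92 and 104 CPM to 128, 126 and 138 CPM (log2 0.41 ± 0.09, adjusted p = 0.0162). SQSTM1, the autophagy receptor that also binds KEAP1, went from 571, 532 and 552 CPM to 733, 713 and 725 CPM (log2 0.39 ± 0.09, adjusted p = 0.0278). The high and low libraries of these 3 genes did not overlap, as in every called gene. All 28 fitted changes were above 0, and 27 of 28 with transcript length and GC trends removed. The 9 libraries alone called 10 of the 28, all higher, against 2.51% of all genes. They added among others SLC7A11, the cystine carrier (log2 0.34 ± 0.05, adjusted p = 0.000761), and GCLC, the catalytic partner of GCLM (log2 0.17 ± 0.04, adjusted p = 0.0403). They also added AKR1C1 and AKR1C2, reductases of steroids and carbonyls whose near-identical copies make their counts uncertain. NFE2L2, the gene of NRF2 itself, was called lower in the 9 libraries alone (log2 -0.20 ± 0.04, adjusted p = 0.0167). NQO1 and SLC48A1 kept their calls with each of the 6 libraries left out. SLC48A1 lost its call without a low-count filter and with length and GC trends removed, and NQO1 did not. SQSTM1 lost its call with any 1 of the 6 libraries left out (adjusted p 0.0654 to 0.188), and GCLM and FTH1 each with 4 of them (highest adjusted p 0.171 and 0.0957). For GCLM these were high replicates 1 and 3 and low replicates 1 and 2, and for FTH1 high replicates 1 and 3 and low replicates 2 and 3.

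**Figure D2:**
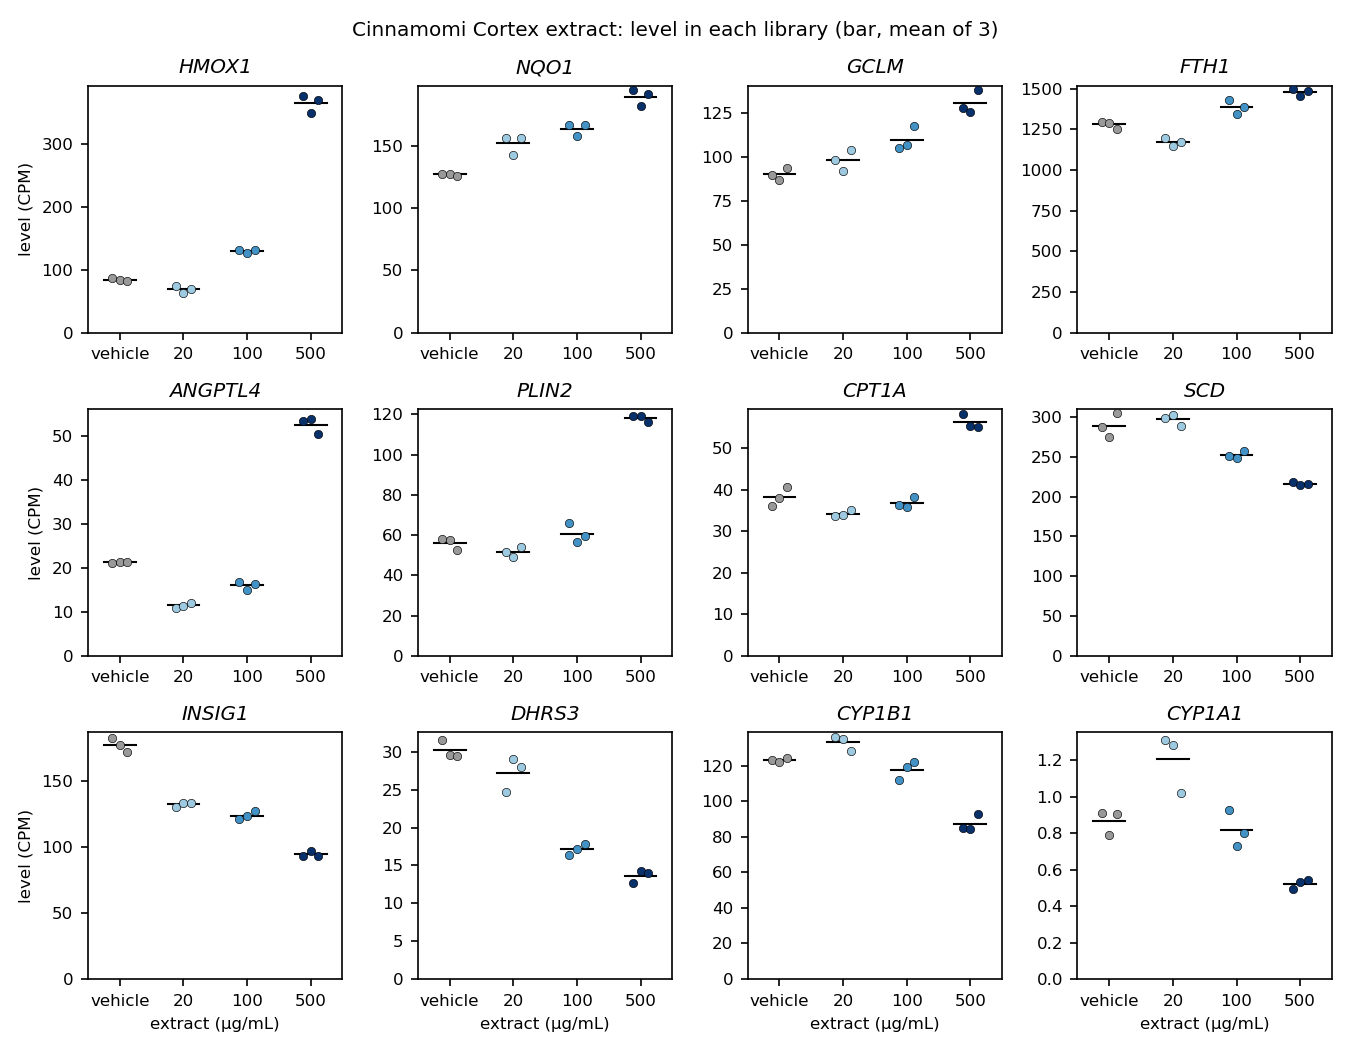
CPM of 12 genes in each library of the vehicle and of the low (20 µg/mL), medium (100 µg/mL) and high (500 µg/mL) dose; points are libraries, bars the mean of 3, and each y axis starts at 0. HMOX1, ANGPTL4 and PLIN2 are highest in the 3 high-dose libraries, and DHRS3 and CYP1A1 are lowest there.

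ANGPTL4 (chr19:8363289-8374373), a secreted inhibitor of lipoprotein lipase and a well-known PPAR target, was 11, 11.3 and 12.1 CPM at the low dose, 16.9, 15 and 16.4 CPM at the medium dose and 53.4, 54 and 50.4 CPM at the high dose. The vehicle libraries, at 21.1, 21.4 and 21.4 CPM, lay between the medium and the high dose. The rise from the low to the high dose was 4.58-fold (log2 2.20 ± 0.14, adjusted p = 6.29e-16). PLIN2 (chr9:19108375-19149290), which coats lipid droplets, went from 51.5, 49.2 and 53.9 CPM to 119, 119 and 116 CPM, 2.29-fold (log2 1.19 ± 0.06, adjusted p = 7.87e-19). Its vehicle libraries, 58.1, 57.6 and 52.6 CPM, overlapped those of the low dose. CPT1A (chr11:68754620-68844410), the carnitine transferase that lets long-chain fatty acids into mitochondria, went from 33.7, 33.8 and 35.2 CPM to 58.1, 55.3 and 55 CPM, 1.64-fold (log2 0.71 ± 0.08, adjusted p = 6.91e-08).

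The same list held 3 further rises. PDK4, a kinase that slows the use of pyruvate, was low throughout, at 0.751, 0.76 and 0.621 CPM at the low dose and 1.9, 2.1 and 1.89 CPM at the high dose (log2 1.46 ± 0.28, adjusted p = 0.00267). SLC25A20, the carnitine carrier that works downstream of CPT1A, went from 16.9, 19.5 and 17.4 CPM to 24, 23 and 23.2 CPM (log2 0.39 ± 0.07, adjusted p = 0.00259). ACAA2, a thiolase of the last step of mitochondrial β-oxidation, went from 27.1, 29.3 and 30.2 CPM to 39.6, 37.8 and 38.1 CPM (log2 0.42 ± 0.07, adjusted p = 0.000307). In all, 6 of 34 tested genes of PPAR targets, lipid droplets and fatty acid oxidation rose and 1 fell, with a median log2 change of 0.03 and 23 of 34 changes above 0, so the list as a whole lay near the median of all genes. The fit of these 9 libraries added ACADVL, the very-long-chain acyl-CoA dehydrogenase (log2 0.28 ± 0.04, adjusted p = 0.000685), and ECH1 (log2 0.24 ± 0.05, adjusted p = 0.023). The member that fell was TXNIP, a thioredoxin-binding arrestin that responds to glucose, from 11.1, 10.2 and 9.54 CPM to 7.26, 7.38 and 7.45 CPM (log2 -0.48 ± 0.11, adjusted p = 0.0298). TXNIP lost its call without high replicate 1, 2 or 3 or low replicate 1 or 2 (highest adjusted p 0.282). The 6 rises of this list kept their calls with each of the 6 libraries left out.

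Some genes of sterol and fatty acid supply fell from the low to the high dose, 3 of 25 and 3 of 13 tested. INSIG1 (chr7:155297776-155310235), which holds SREBP precursors in the endoplasmic reticulum and is itself an SREBP target, was 130, 133 and 133 CPM at the low dose and 92.9, 97 and 92.8 CPM at the high dose (log2 -0.49 ± 0.06, adjusted p = 2.47e-06). The vehicle libraries held 172 to 182 CPM of INSIG1, above all 9 extract libraries. IDI1, an isomerase of the early sterol pathway, went from 45.7, 47.6 and 46.8 CPM to 38, 36.3 and 37.8 CPM (log2 -0.32 ± 0.08, adjusted p = 0.0287). Of 25 genes of cholesterol synthesis and uptake, 3 fell, INSIG1 and IDI1 among them, and none rose. The median log2 change was -0.19, and 24 of 25 changes were below 0 (23 with the size factors of DESeq2 and 25 with length and GC trends removed). The 9 libraries alone called 10 of the 25, all lower, against 2.51% of all genes. They added among others SREBF2, the gene of the controlling factor (log2 -0.22 ± 0.04, adjusted p = 0.00334).

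In fatty acid synthesis, 3 of 13 tested genes fell and none rose, with a median log2 change of -0.06. SCD, the desaturase that makes oleate, went from 299, 302 and 289 CPM at the low dose to 218, 214 and 216 CPM at the high dose (log2 -0.46 ± 0.07, adjusted p = 2.66e-05). SREBF1, the gene of the factor that drives this pathway, went from 49.7, 54.7 and 51.3 CPM to 38.9, 35 and 37.3 CPM (log2 -0.48 ± 0.11, adjusted p = 0.0278). FADS2, a desaturase of polyunsaturated fatty acids, went from 79.1, 76.1 and 78.2 CPM to 65.8, 64 and 61.9 CPM (log2 -0.28 ± 0.07, adjusted p = 0.0243). The groups of these 3 genes did not overlap, as in every called gene. SREBF1, FADS2 and IDI1 lost their calls with any 1 of the 6 libraries left out (highest adjusted p 0.247, 0.234 and 0.218), whereas SCD and INSIG1 kept theirs. In the 9 libraries alone, FASN (log2 -0.14 ± 0.03, adjusted p = 0.0246) and MID1IP1 (log2 -0.20 ± 0.05, adjusted p = 0.0447) fell too. Of 9 LXR targets none was called, and the 9 libraries alone called 1, MYLIP, a ubiquitin ligase gene (log2 -0.30 ± 0.07, adjusted p = 0.0246).

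DHRS3 (chr1:12567910-12617731), which reduces retinal to retinol and is raised by retinoic acid, fell from the low to the high dose. Its level was 24.7, 29 and 28 CPM at the low dose, 16.4, 17.1 and 17.8 CPM at the medium dose and 12.7, 14.3 and 14 CPM at the high dose. The vehicle libraries, at 31.6, 29.6 and 29.4 CPM, lay above all 9. The high dose was 1.99-fold below the low dose (log2 -0.99 ± 0.12, adjusted p = 1.78e-07). ALDH1A3, which oxidises retinal to retinoic acid, went from 667, 691 and 704 CPM to 548, 578 and 581 CPM (log2 -0.27 ± 0.05, adjusted p = 0.00301); it lost its call without high replicate 1 or low replicate 3 (highest adjusted p 0.0696). Of 18 tested genes of retinoid metabolism and retinoic acid response, these 2 fell, none rose, and the median log2 change was -0.17 with 15 of 18 below 0. In the 9 libraries alone 5 were called, all lower, against 2.51% of all genes. Added there were the receptor genes RARB (log2 -0.26 ± 0.06, adjusted p = 0.0277) and RARG (log2 -0.21 ± 0.05, adjusted p = 0.0236) and CYP26B1, which degrades retinoic acid (log2 -0.25 ± 0.06, adjusted p = 0.0426).

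CYP1A1 and CYP1B1, monooxygenases of aromatic compounds and the best-known AhR targets, both fell. CYP1B1 (chr2:38066973-38109902) was 136, 135 and 128 CPM at the low dose and 85, 84.1 and 92.6 CPM at the high dose (log2 -0.61 ± 0.06, adjusted p = 8.32e-10). CYP1A1 (chr15:74719542-74725610) was scarce, at 1.31, 1.28 and 1.02 CPM and then 0.492, 0.534 and 0.543 CPM (log2 -1.20 ± 0.24, adjusted p = 0.00389). For both genes the low dose lay above all vehicle libraries and the high dose below them. These were 2 of 10 tested AhR targets, and none rose. Added in the 9 libraries alone were the feedback genes AHRR, the receptor's repressor (log2 -0.46 ± 0.05, adjusted p = 3.04e-05), and TIPARP, which ADP-ribosylates the receptor (log2 -0.45 ± 0.05, adjusted p = 3.21e-05). The list as a whole was mixed: 5 of 10 changes were above 0, that of AHR itself at log2 0.16 ± 0.10 (adjusted p = 1), and the median was -0.06. CYP2S1, outside the list and a cytochrome P450 known to respond to AhR, went from 7.25, 7.68 and 8.62 CPM to 5.91, 5.47 and 5.56 CPM (log2 -0.47 ± 0.11, adjusted p = 0.0219). It kept its call only without low replicate 1 (highest adjusted p 0.306 among the other 5 libraries left out).

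Smaller numbers of genes were called in other lists. KLF9 and TSC22D3, transcriptional regulators raised by glucocorticoids, fell, 2 of 9 tested targets. KLF9 went from 67.3, 66.1 and 65.1 CPM to 47.6, 52.6 and 50.7 CPM (log2 -0.40 ± 0.07, adjusted p = 0.000495), and TSC22D3 from 17.1, 19.3 and 19.5 CPM to 14.8, 12.3 and 15.5 CPM (log2 -0.39 ± 0.09, adjusted p = 0.0262). TSC22D3 lost its call without high replicate 1 or 2 or low replicate 2 or 3 (highest adjusted p 0.412). FKBP5 and PER1, targets of the same receptor, were at log2 -0.04 ± 0.09 and 0.01 ± 0.07 (adjusted p = 1 for both), so that the 9 members did not move as 1 group. MT1E, a metallothionein that binds zinc and copper, went from 24.9, 22.6 and 26.4 CPM to 18.4, 16 and 17.5 CPM (log2 -0.51 ± 0.10, adjusted p = 0.00249), the sole call among 8 tested genes of metallothioneins and zinc transport. Metallothionein genes are close copies, so its counts are uncertain, and its call was lost without high replicate 2 (adjusted p = 0.0508). DUSP5, a phosphatase of nuclear ERK, was the 1 call of 20 MAPK feedback genes (13.2, 12.3 and 14 CPM against 16.6, 16.5 and 15.5 CPM, log2 0.30 ± 0.07, adjusted p = 0.0249), lost without high replicate 1 or 2 or low replicate 1 or 2 (highest adjusted p 0.261).

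Among 14 proteases and inhibitors of the matrix, 2 rose and 1 fell. PLAT, the tissue plasminogen activator, went from 331, 321 and 313 CPM at the low dose to 273, 278 and 263 CPM at the high dose (log2 -0.25 ± 0.05, adjusted p = 0.00304). ADAMTS1, a protease of proteoglycans, went from 48.9, 51.6 and 49.1 CPM to 63.1, 62.3 and 59.1 CPM (log2 0.30 ± 0.07, adjusted p = 0.032). The groups of both genes did not overlap, as in every called gene. ADAMTS1 lost its call with any 1 library left out (highest adjusted p 0.218) and PLAT without high replicate 3 or low replicate 1 (highest 0.0699). Added in the 9 libraries alone were PLAUR, the urokinase receptor (log2 0.29 ± 0.05, adjusted p = 0.00177), SERPINE2 (log2 0.14 ± 0.03, adjusted p = 0.0278) and MMP14 (log2 0.16 ± 0.03, adjusted p = 0.0118), all higher.

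The remaining rises included secreted and surface proteins. HAS2, which makes hyaluronan, went from 58.8, 62.5 and 63.2 CPM to 85.8, 86.2 and 82.2 CPM (log2 0.46 ± 0.10, adjusted p = 0.0114), without reaching the vehicle's 93.1 to 94.6 CPM. PTX3, a soluble pattern recognition protein, went from 30.3, 33.2 and 33.8 CPM to 44.2, 43.8 and 44.7 CPM (log2 0.45 ± 0.08, adjusted p = 0.000445). IL1RL1, the receptor of interleukin 33, went from 40.6, 39 and 40.4 CPM to 55, 52.2 and 54.9 CPM (log2 0.43 ± 0.07, adjusted p = 6.47e-05). These 3 genes separated the doses without overlap, as every called gene did. HAS2 lost its call without high replicate 1 or 2 or low replicate 1 (highest adjusted p 0.115). ASS1, argininosuccinate synthase of arginine supply, rose by log2 0.49 ± 0.08 (adjusted p = 0.000374), and IMPA2, an inositol monophosphatase, by 0.72 ± 0.11 (adjusted p = 2.66e-05). NMRAL2P, a transcribed pseudogene, rose by log2 0.78 ± 0.14 (adjusted p = 0.000807), from 1.44, 1.6 and 1.79 CPM to 2.76, 3.07 and 2.43 CPM. The adhesion gene AMIGO2 rose by log2 0.42 ± 0.05 (adjusted p = 1.06e-06) and RASD2, a small GTPase, by 0.41 ± 0.05 (adjusted p = 3.39e-06). SIK1, a salt-inducible kinase, rose by log2 0.46 ± 0.09 (adjusted p = 0.00478; 0.0691 without low replicate 3). TLCD1 (log2 0.39 ± 0.09) and the sialomucin PODXL (log2 0.32 ± 0.08) lost their calls, TLCD1 with any library but low replicate 2 left out (highest adjusted p 0.169) and PODXL with any 1 of the 6 (highest 0.26).

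The remaining falls included receptors and signalling proteins. VIPR1, the receptor of vasoactive intestinal peptide, went from 4.05, 4.08 and 3.98 CPM to 2, 2.34 and 2.37 CPM (log2 -0.85 ± 0.16, adjusted p = 0.00259). SFRP2, a secreted Wnt modulator, went from 42.7, 41.1 and 41.8 CPM to 31.1, 28.2 and 28.9 CPM (log2 -0.51 ± 0.07, adjusted p = 2.47e-06). LYPD1, a GPI-anchored protein of the Ly6 family, went from 31.6, 28.9 and 31.7 CPM to 19.9, 22 and 21.5 CPM (log2 -0.54 ± 0.08, adjusted p = 5.14e-05). Each of the 3 separated the doses without overlap, as every called gene did. BMF, a pro-apoptotic member of the BCL2 family, fell by 0.71 ± 0.12 on the log2 scale (adjusted p = 0.000432), and PADI2, which converts arginine residues to citrulline, by 0.64 ± 0.10 (adjusted p = 0.00025). The urea transporter gene SLC14A1 (log2 -0.89 ± 0.21, adjusted p = 0.037) and the receptor kinase gene KIT (log2 -0.37 ± 0.09, adjusted p = 0.0244) lost their calls with any 1 library left out (highest adjusted p 0.204 and 0.179). VAV3, a guanine nucleotide exchange factor, and ABCB1, the drug efflux pump, were at log2 -0.54 ± 0.11 and -0.36 ± 0.07 (adjusted p = 0.00618 and 0.00739). VAV3 lost its call without high replicate 1 or 2 or low replicate 1 (highest adjusted p 0.0791), and ABCB1 without high replicate 1 or low replicate 1 or 3 (highest 0.153).

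Most stress and growth lists had no called member in the 57-library test, as the background of 0.441% gives for lists of this size. This held for 19 heat shock genes (median log2 change -0.05), 25 genes of the ATF4 amino acid response (0.05), 17 genes of the endoplasmic reticulum unfolded protein response (0.11, all 17 above 0), 25 G2/M and mitosis genes (-0.01), 21 DNA replication genes (-0.01) and 18 p53 targets (-0.08). It also held for 32 cytosolic ribosomal protein genes (median log2 change -0.08, 29 below 0), 27 of the nuclear respiratory chain (-0.02), 13 encoded by mitochondria (-0.04), 24 of hypoxia and glycolysis (0.02), 22 of NF-kB and chemokines (0.08) and 16 interferon-stimulated genes (0.04). Lists of BMP and SMAD targets (12 genes, -0.04), YAP/TAZ targets (16, 0.00), SRF and actin genes (16, -0.02), lysosome genes (21, 0.07), collagens and laminins (22, 0.04) and clock genes (14, -0.01) had none either. The 9 libraries alone called none of the 25 mitosis and 21 replication genes, 4 of the ATF4 genes, all higher, among them GDF15, a stress-induced cytokine (4.46 CPM at the low and 6.44 CPM at the high dose on average, log2 0.54 ± 0.11, adjusted p = 0.0164), and 3 of the unfolded protein genes, all higher. Of the YAP/TAZ targets they called 3 higher and 1 lower, and of the p53 targets 2 higher. They also called 2 of the heat shock genes, HSPA1A and DNAJB1, and 4 of the ribosomal protein genes, all lower. The share over all genes in the 9 libraries alone was 2.51%, which gives about as few calls as the mitosis and replication lists had. CXCL8, a neutrophil chemokine, was higher there (log2 0.54 ± 0.09, adjusted p = 0.00207) and CCL2, a monocyte chemokine, lower (log2 -0.38 ± 0.08, adjusted p = 0.0209).

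Across the 3 doses the medium dose took a place between the others, nearer to the low dose. The mean of the medium libraries lay between those of the low and the high dose in 75 of the 78 called genes, against 40.1% of all tested genes, the 78 having been called on the change it lies within. The exceptions were SIK1 and CPA4, whose medium mean lay on the far side of the low dose, and PLAT, whose medium mean lay past the high dose. The medium dose had covered a median of 34.1% of the log2 change (29.6% in the higher and 38.6% in the lower genes), and it had covered under 50% in 59 of 78 genes. Against the low dose, 4 of 17676 genes were called at the medium dose (0.0226%; 383 at an unadjusted p below 0.05). HMOX1 rose (log2 0.91 ± 0.09, adjusted p = 1.53e-08), and DHRS3 (log2 -0.67 ± 0.11, adjusted p = 0.00336), PLAT (log2 -0.29, adjusted p = 0.00336) and CLDN11, a tight junction protein (log2 -0.29, adjusted p = 0.0349), fell. This count was 2 without low replicate 1 or 2 and 1 without medium replicate 2. Between the medium and the high dose, 21 genes were called (0.119%; 698 unadjusted), 13 higher and 8 lower, and 20 of them were also called from low to high. The exception was PNRC1, a nuclear receptor coactivator (log2 -0.31 ± 0.07, adjusted p = 0.046). That count was 13 without high replicate 1 or medium replicate 1, 11 without high replicate 2, 10 without high replicate 3 and 12 without medium replicate 3; without medium replicate 2 it was 14.

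The second step of dose carried most of the change of ANGPTL4, PLIN2 and CPT1A. This did not hold for every lipid gene, as FADS2 had 64.9% of its log2 change in the first step. ANGPTL4 rose by log2 1.71 ± 0.14 from the medium to the high dose (adjusted p = 1.47e-12), PLIN2 by 0.96 ± 0.06 (adjusted p = 2.34e-15) and CPT1A by 0.61 ± 0.08 (adjusted p = 5.19e-06), with 22.2%, 19.6% and 14.6% of their log2 change in the first step. HMOX1 had 37.9% in the first step and rose by a further 1.495 ± 0.09 on the log2 scale in the second (adjusted p = 4.08e-16). DHRS3 had 67.1% in the first step, and its second step was not called (log2 -0.33 ± 0.12, adjusted p = 0.864); CLDN11 had 88.2%. Whether these shares differ between genes was not tested.

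**Figure D3:**
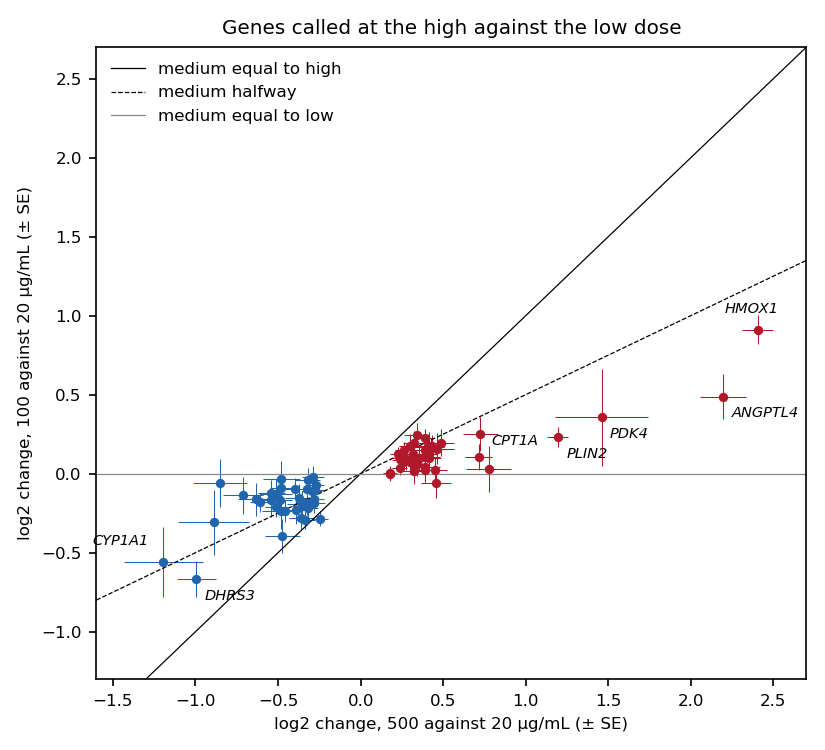
Log2 change of the medium (y axis) and the high dose (x axis), each against the low dose, for the 78 genes called from low to high, with SE. Both changes share the low-dose libraries, and 75 of the 78 points lie between no change and the full change.

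Against the vehicle, the low dose was no neutral baseline, within the limit that the vehicle carries another label code. All 3 low-dose libraries lay above all vehicle libraries in 16 of the 78 genes, below them in 27 and overlapped them in 35; of all tested genes 41.3% had the low dose wholly on one side. Of the 43 genes that rose with dose, 33 ended above the vehicle at the high dose, 6 overlapped it and 4 were still below it, HAS2, RASD2 and the lipid transporter gene MFSD2A among them. Of the 35 that fell, 30 ended below the vehicle, 3 overlapped it and 2 were still above it, VAV3 and TNFRSF19, a receptor of the TNF family. ANGPTL4 and HMOX1 thus stood below the vehicle at the low dose and above it at the high dose, and CYP1B1, CYP1A1 and SREBF1 the reverse. Mean ANGPTL4 was 21.3 CPM in the vehicle, 11.6 CPM at the low dose of Samul-tang and 11.2 CPM at that of Sibjeondaebo-tang. For HMOX1 the same means were 84.3, 64 and 69.6 CPM. In ANGPTL4 and HMOX1 the gap between low dose and vehicle was therefore not particular to the bark, and its cause was not tested. The share of all tested genes wholly on one side of the vehicle at the high dose was not computed. The 78 genes were called on their high-dose libraries, so the counts at that dose are descriptions.

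The change with dose was then set against that of the 2 formulas, over the same span from 20 to 500 µg/mL, by the test of the difference between changes. Against Samul-tang 65 of 17676 genes were called (0.368%), 22 with a more positive and 43 with a more negative change in Cinnamomi Cortex (91 and 94 with transcript length and GC trends removed). The split turned without the 2 Astragali Radix libraries, to 227 more positive and 182 more negative, and with the compared extracts alone, to 201 and 168. Of the 78 genes this took in 19, or 24.4%, and in 18 of them the change of Cinnamomi Cortex pointed further in its own direction and in 1 it did not. The 78 genes were called on their change in Cinnamomi Cortex, so these splits are descriptions. Against Sibjeondaebo-tang 1107 genes were called (6.26%), 588 more positive and 519 more negative, and 27 of the 78 (34.6%), 14 with the change pointing further in the direction of Cinnamomi Cortex and 13 not. With length and GC trends removed the split was 939 and 1369. This count was 733 without Cinnamomi Cortex high replicate 3, 641 without its low replicate 3, 531 without Sibjeondaebo-tang high replicate 3 and 675 without its low replicate 3. Both comparisons use the same Cinnamomi Cortex libraries, and both cross label codes.

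HMOX1 rose in all 3 extracts and by unequal amounts, from a mean of 69.1 to 366 CPM with Cinnamomi Cortex, 64 to 180 CPM with Samul-tang and 69.6 to 595 CPM with Sibjeondaebo-tang. Its change in Cinnamomi Cortex exceeded that in Samul-tang by log2 0.91 ± 0.13 (adjusted p = 1.63e-05) and fell short of that in Sibjeondaebo-tang (log2 difference -0.69 ± 0.13, adjusted p = 0.000501). NQO1 was the gene of the 19 whose change was smaller than in Samul-tang. It went from 152 to 190 CPM with Cinnamomi Cortex, 153 to 276 CPM with Samul-tang (difference -0.53 ± 0.09, adjusted p = 0.0002) and 148 to 415 CPM with Sibjeondaebo-tang (difference -1.17 ± 0.09, adjusted p = 7.66e-13). FTH1 went from 1171 to 1481 CPM with Cinnamomi Cortex and from 1195 to 3451 CPM with Sibjeondaebo-tang (difference -1.19 ± 0.11, adjusted p = 1.13e-10). SQSTM1, GCLM, SLC48A1 and ALAS1 likewise changed less than with Sibjeondaebo-tang. Of the 28 NRF2 targets, 24 had a called difference from Sibjeondaebo-tang, all more negative in Cinnamomi Cortex, and 3 from Samul-tang, also more negative. The shares over all genes were 6.26% and 0.368%.

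AhR targets moved apart between the extracts. CYP1B1 went from a mean of 133 to 87.3 CPM with Cinnamomi Cortex, from 143 to 189 CPM with Samul-tang and from 147 to 175 CPM with Sibjeondaebo-tang. The differences were log2 -1.02 ± 0.08 (adjusted p = 1.06e-11) and -0.86 ± 0.08 (adjusted p = 3.91e-10), and the high and low libraries of each formula did not overlap, so the gene ran opposite ways. CYP1A1 went from 1.2 to 0.523 CPM with Cinnamomi Cortex, from 1.03 to 1.75 CPM with Samul-tang (difference -1.95 ± 0.31, adjusted p = 0.000157) and from 1.08 to 1.41 CPM with Sibjeondaebo-tang (difference -1.58 ± 0.32, adjusted p = 0.00137), where the doses overlapped. ALDH1A3 and CYP2S1 were also lower with the bark and higher with Samul-tang, at differences of log2 -0.62 ± 0.07 (adjusted p = 5.17e-07) and -0.95 ± 0.15 (adjusted p = 0.000104). Of 10 AhR targets, 6 had a called difference from Samul-tang and 5 from Sibjeondaebo-tang, all more negative in Cinnamomi Cortex. Over all genes the shares were 0.368% and 6.26%.

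No gene of the PPAR list had a called difference from either formula, which for Samul-tang is what the share of 0.368% over all genes gives for 34 genes. ANGPTL4 went from a mean of 11.5 to 52.6 CPM with Cinnamomi Cortex, 11.6 to 33.5 CPM with Samul-tang and 11.2 to 56.7 CPM with Sibjeondaebo-tang, and neither difference was called (log2 0.67 ± 0.20, adjusted p = 0.185, and -0.14 ± 0.20, adjusted p = 0.738), which does not show that the changes are alike. The change of PLIN2 differed from that in Samul-tang by log2 0.34 ± 0.09 (adjusted p = 0.0957). INSIG1 fell further with the bark than with Sibjeondaebo-tang, from 132 to 94.2 CPM against 140 to 131 CPM (difference -0.39 ± 0.09, adjusted p = 0.00466). RASD2 and PODXL too rose with the bark and were lower at the high dose of both formulas, without overlap.

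**Figure D4:**
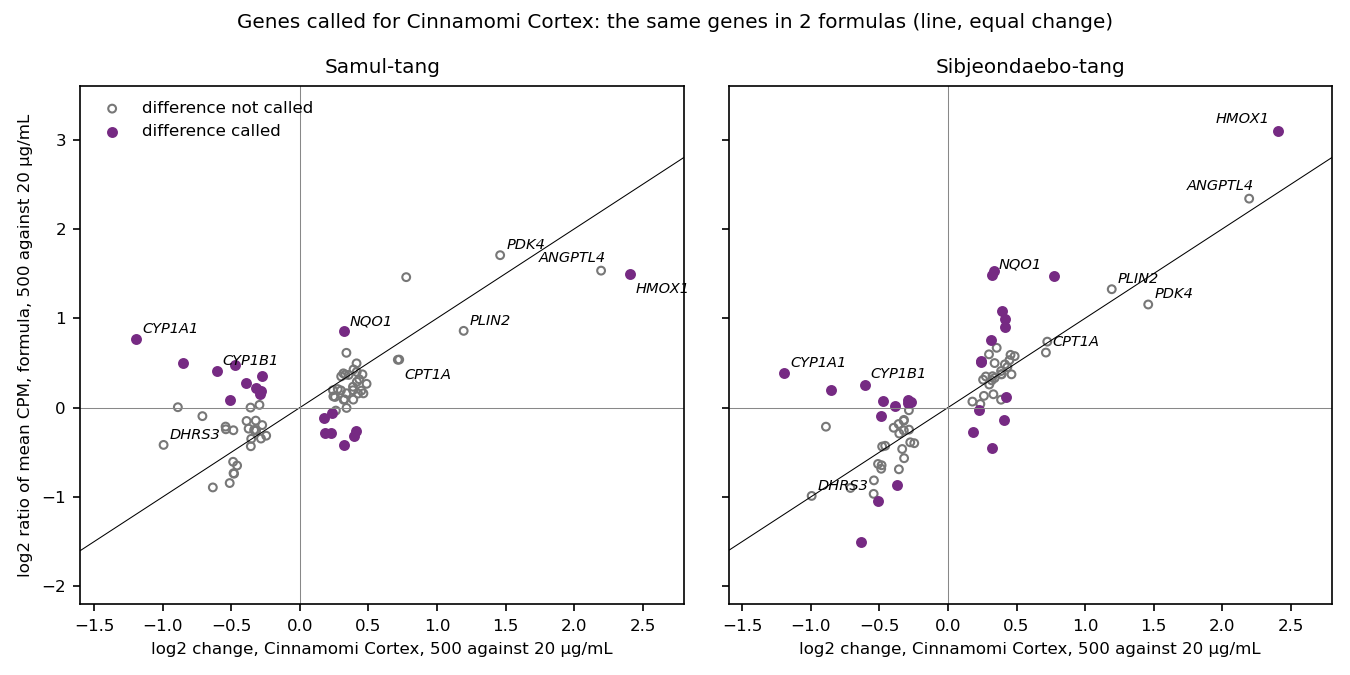
Log2 change of Cinnamomi Cortex from low to high dose (x axis) against the log2 ratio of mean CPM of the same doses (y axis) in Samul-tang and in Sibjeondaebo-tang, for the 78 called genes; filled points have a called difference, 19 and 27 of them. HMOX1 lies far right in both panels, and CYP1B1 and CYP1A1 lie left of 0 on the x axis and above 0 on the y axis.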

How the data were processed

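RNA of SW1783 cells was sequenced as 100 bp paired-end reads with the MGIEasy directional kit, per the labels' protocols. The authors deposited RSEM expected counts per gene. The submitters' processing notes name FastQC 0.11.9, Trim Galore 0.6.5, STAR 2.7.3a, RSEM 1.3.3 and hg38; the annotation and the strand setting are not given in the sources used here. Of 279 columns, 60 belong to the series and 219 were not used. Of the values 90.8% were whole (tolerance 1e-09), and all were rounded. Names (56996 of 60675 genes) and positions come from GENCODE on GRCh38.

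The 57 libraries of 19 groups of 3 were fitted with edgeR 4.0.16 in R 4.3.3 (quasi-likelihood F test, TMM, filterByExpr, 1 mean per group); 3 single libraries of Rehmanniae Radix Preparata were left out. The threshold for a call was 0.05 after Benjamini-Hochberg adjustment over 17676 genes, at any fold. SE is the log2 change over the square root of F. The fit was also run on counts simulated from its own estimates of level and spread, which cannot show that calls in the real libraries are right. Alternatives were DESeq2 1.42.0 and its size factors, no low-count filter, fewer libraries, a replicate block and spline removal of length and GC trends per library.

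Members, the 36 gene lists and tests were chosen with earlier results of these data known. Genes named in full are HMOX1, ANGPTL4, PLIN2, CPT1A and DHRS3, the 20 largest rises and 20 largest falls among called genes of at least 1 CPM (clone-based names left out), up to 4 called members of each list and the 5 largest differences each way from each formula. Other called genes named (CPA4, CLDN11, PNRC1, MFSD2A, TNFRSF19) and members called in the 9 libraries alone were picked after their values were seen. Some results are not reported here.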

Additional observations from a re-analysis of the deposited data

Results flagged for a closer look

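The genes here were set apart because their change from the low to the high dose differed between Cinnamomi Cortex and a formula by the test of that difference (edgeR's quasi-likelihood test, adjusted p below 0.05). Each value is the log2 change of Cinnamomi Cortex minus that of the formula, n = 3 libraries per group. The genes are those named from low to high dose and the 5 largest differences each way.

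Against Samul-tang the difference was negative for ALDH3A1 (-2.59), CYP1A1 (-1.95), KRTAP1-5 (-1.80), ENSG00000230387 (-1.605), NPTX1 (-1.54), VIPR1 (-1.35), CYP1B1 (-1.02), CYP2S1 (-0.95), KLF9 (-0.67), ALDH1A3 (-0.62), SFRP2 (-0.59) and NQO1 (-0.53). It was positive for UCA1 (1.06), HMOX1 (0.91), ID3 (0.89), PODXL (0.74), TLCD1 (0.71) and RASD2 (0.67). ALDH3A1 was scarce, with means from 0.296 to 0.262 CPM with Cinnamomi Cortex and from 0.247 to 1.29 CPM with Samul-tang. Among the 10 largest differences, the calls of ALDH3A1, ENSG00000230387 and UCA1 were lost with 1 library left out: ALDH3A1 without Cinnamomi Cortex low replicate 1, UCA1 without its high replicate 3, its low replicate 2 or Samul-tang low replicate 2, and ENSG00000230387 without its low replicate 3 or Samul-tang low replicate 2.

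Against Sibjeondaebo-tang the difference was negative for several antioxidant and heme genes, FTH1 (-1.19), NQO1 (-1.17), SQSTM1 (-0.69), HMOX1 (-0.69), ALAS1 (-0.57), GCLM (-0.49) and SLC48A1 (-0.44). It was also negative for ALDH3A1 (-1.86), LINC00242 (-1.84), ENSG00000280800 (-1.64), CYP1A1 (-1.58), VIPR1 (-1.05), CYP1B1 (-0.86), NMRAL2P (-0.72), CYP2S1 (-0.55), TSC22D3 (-0.40), INSIG1 (-0.39) and ALDH1A3 (-0.33). It was positive for NPY4R2 (2.95), ENSG00000274383 (2.64), SLC1A2 (2.39), ENSG00000272489 (2.35), THOC1-DT (2.30), PADI2 (0.86), PODXL (0.78), RASD2 (0.55), MT1E (0.54), KIT (0.49) and AMIGO2 (0.31). The first of these, NPY4R2 to THOC1-DT, were scarce, and none was called from low to high dose in Cinnamomi Cortex. Mean levels of SLC1A2 went from 0.26 to 0.274 CPM with Cinnamomi Cortex and from 0.359 to 0.0661 CPM with Sibjeondaebo-tang. Those of NPY4R2 went from 0.207 to 0.553 CPM and from 0.493 to 0.167 CPM. For KIT, MT1E and PADI2 the fall was the larger one in Sibjeondaebo-tang. RN7SL2 (-3.67) and RN7SL1 (-3.24) belong to a family of near-identical copies, and their counts are uncertain. Among the 10 largest differences, 9 lost their call with at least 1 library left out, RN7SL1, RN7SL2, ALDH3A1, LINC00242, ENSG00000280800, NPY4R2, SLC1A2, ENSG00000272489 and THOC1-DT.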

How the results depend on the processing

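Of 52 named genes called from low to high dose, 28 were called under every alternative that gave them a value (27 of them under 13, and PDK4, without a DESeq2 value, under 12), and none changed sign; calls were lost in 11 without a low-count filter, in 1 with length and GC trends removed and in 14 to 20 with 1 library left out. The counts of called genes moved more. From low to high dose (78 called) they were 534 without 2 Astragali Radix libraries, 415 in the 9 libraries alone, 225 with length and GC trends removed, 126 with DESeq2 and 43 to 56 with 1 library left out. From low to medium dose (4) they were 10, 10 and 8 in the first 3 of these settings, 56 without a low-count filter and 1 to 4 with 1 library left out. From medium to high dose (21) they were 175, 159, 73 and 43 in the first 4 settings, 69 without the filter and 10 to 14 with 1 left out. For the difference from Samul-tang (65) they were 409, 369, 185 and 98, and 122 without the filter. For that from Sibjeondaebo-tang (1107) they were 4488, 4114 and 2308, and 531 to 1279 with 1 left out. The cause was not tested. A limit set by depth was not tested either.

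Same-numbered Cinnamomi Cortex libraries correlated weakly in their deviations from the group means (r 0.0395 to 0.16 over 9 pairs, against -0.133 to 0.0749 for other numbers), and in 16 of 18 cases a library correlated best with its own number, a hint from the data and not from the design. A replicate block gave 80 calls from low to high dose (77 of the 78), 4 from low to medium, 25 from medium to high, 67 against Samul-tang and 1174 against Sibjeondaebo-tang.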
